A study of Mus musculus with 16 samples.

Results

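A set of 9 genes of iron absorption and storage were followed in RNA-seq counts of the mouse ileum: *Cybrd1*, *Slc11a2*, *Tfrc*, *Slc40a1*, *Heph*, *Fth1*, *Ftl1*, *Aco1* and *Ireb2*. They were chosen by symbol for their place in iron handling, and they are 9 of the 21965 genes of the count table. All 9 had reads in every mouse and passed the filter on low counts that left 13811 genes for testing. The study fed alcohol to mice with and without the fat-1 transgene, a worm (*C. elegans*) desaturase that turns n6 into n3 polyunsaturated fatty acids, to see how the intestine responds when n3 fatty acids are high. All mice were male and C57BL/6, were 8 to 10 weeks old when the feeding began, and all received a liquid diet. WT PF mice (n = 4) were wild-type littermates that were pair-fed this diet with maltose dextrin in place of alcohol. The fat-1 PF mice (n = 4) carried the transgene in heterozygous form, labelled Fat1+/-, and were fed in the same way. WT EtOH (n = 3) and fat-1 EtOH mice (n = 5) were the same genotypes on a diet whose ethanol (EtOH) content was raised in steps to 6%, held for 3 weeks. Each library came from a piece of terminal ileum of 1 mouse, which the study also calls mucosa. No step that separates the layers of the wall is described, and genes of epithelium, muscle and immune cells were read together. In such bulk RNA, fewer cells of a type and less RNA per cell cannot be told apart.

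Dietary iron is absorbed mainly in the duodenum. *Cybrd1* encodes a ferrireductase of the brush border, which reduces ferric to ferrous iron, and *Slc11a2* encodes DMT1, which carries ferrous iron into the enterocyte. *Slc40a1* encodes ferroportin, the known cellular iron exporter, and *Heph* encodes hephaestin, the membrane ferroxidase that works beside it. Iron kept in the cell is stored in ferritin, whose heavy and light chains are encoded by *Fth1* and *Ftl1*, while *Tfrc* encodes the transferrin receptor, which takes up iron from the blood side. *Aco1* and *Ireb2* encode the iron regulatory proteins IRP1 and IRP2. When iron is short these bind RNA hairpins called iron-responsive elements (IREs), which blocks translation when the hairpin lies in the 5′ UTR and protects the message from decay when it lies in the 3′ UTR of *Tfrc*. A count of reads therefore follows the message of *Tfrc* through this switch, but does not read the translational step of ferritin or ferroportin.

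The hairpins are printed because they are the sites at which iron regulatory proteins bind the messages of ferritin, ferroportin and the transferrin receptor. The transcripts of the 9 genes in GENCODE M21 (GRCm38) were searched on the sense strand for a C, any 5 bases, the loop CAGTGN and then 5 bases that pair with the 5 bases before the loop, G-T pairs allowed. The loop is in capitals, and each sequence runs 5′ to 3′ over 27 bases.
Fth1 5′ UTR, chr19:9982733-9982759, plus strand: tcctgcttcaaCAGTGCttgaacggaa
Ftl1 5′ UTR, chr7:45459780-45459806, minus strand: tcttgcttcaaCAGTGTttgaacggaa
Slc40a1 5′ UTR, chr1:45925466-45925492, minus strand: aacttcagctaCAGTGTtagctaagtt
Tfrc 3′ UTR, chr16:32631220-32631246, plus strand: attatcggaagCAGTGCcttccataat
Tfrc 3′ UTR, chr16:32631599-32631625, plus strand: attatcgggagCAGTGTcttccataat
Tfrc 3′ UTR, chr16:32631664-32631690, plus strand: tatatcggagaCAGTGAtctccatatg
Tfrc 3′ UTR, chr16:32631711-32631737, plus strand: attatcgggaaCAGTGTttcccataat
By the same search 294 of 21901 protein-coding genes, 1.34%, held such a hairpin, and 4 of the 9 genes did. In *Tfrc* it occurred 4 times, while *Fth1*, *Ftl1* and *Slc40a1* each had 1. Under this rule no match was found in *Slc11a2*, *Cybrd1*, *Heph*, *Aco1* or *Ireb2*, which says only that these letters and pairs are not in those transcripts. An IRE with a further bulge within the paired bases next to the loop, as is known for *Slc11a2*, cannot match the rule.

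The libraries held 8422645 to 11438539 counted reads, and levels are given as CPM, the counts of a gene scaled to a common library size by trimmed mean of M-values (TMM). In several libraries the label of ileum was opposed by markers. *Fabp6*, the bile acid binding protein of the ileum, stood at 26.1 CPM in fat-1 PF replicate 2 and at 3.31 CPM in replicate 4 of that group, against 845 to 3890 CPM in the other PF mice. In the same 2 libraries 17 genes of the proximal small intestine summed to 82870 and 79070 CPM, while the other PF libraries held 11750 to 36040 CPM and the EtOH libraries 666 to 9791 CPM. *Car1*, a gene of the large intestine, stood at 4041 CPM in replicate 2 of the WT EtOH mice and at 11160 and 12210 CPM in fat-1 EtOH replicates 3 and 4, against 0 to 79.1 CPM in the other mice. *Fabp6* stood at 118 and 586 CPM in the latter 2 libraries, and at 4079 CPM in WT EtOH replicate 2, where the other EtOH mice held 2344 to 4906 CPM. Fat-1 EtOH replicates 3 and 4 also had the lowest sums of 8 epithelial genes (8438 and 8412 CPM, against 10770 CPM or more). As sums over the other lists, PF and EtOH libraries held 439 to 7026 and 1083 to 8304 CPM of 6 ileal bile acid genes, 10680 to 15870 and 11920 to 18640 CPM of 7 goblet cell genes, and 424 to 734 and 444 to 854 CPM of 12 proliferation genes. The summed level of 8 smooth muscle genes was 968 to 1510 CPM in PF and 1944 to 4205 CPM in EtOH mice, so that muscle and proximal genes both separated the diets. Their part in the results below was not tested, and counts of called genes are also given without these 2 fat-1 PF and 3 EtOH libraries, or all 5. Libraries were numbered 1 to 8 in PF and 9 to 16 in EtOH mice, so that library order and diet cannot be told apart.

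The ferritin genes were by far the most abundant of the 9 per length. As CPM per kilobase of exon over all 16 mice, the mean level was 506 ± 141 (SD) for *Ftl1*, 396 ± 151 for *Fth1*, 52.7 ± 12.2 for *Heph* and 44.8 ± 15.1 for *Aco1*. *Tfrc* followed at 33.2 ± 7.46, *Ireb2* at 14.1 ± 3.42, *Slc40a1* at 11.98 ± 6.21 and *Slc11a2* at 9.67 ± 1.502. *Cybrd1* was the lowest at 0.745 ± 0.249. By group means the place of *Slc40a1* in this order differed between the diets. On EtOH its mean CPM per kilobase was 16.4 in WT and 16.9 in fat-1 mice, above *Ireb2* (12.1 and 11.8). On PF it was 8.98 and 5.59, below *Slc11a2* (10.7 and 10.9). Fat-1 PF replicates 2 and 4 held only 1.90 and 2.39 of *Slc40a1*. In WT PF replicates 1 and 4 and fat-1 PF replicate 3 it stood above *Slc11a2* (11.1, 13.3 and 12.6 against 9.46, 9.98 and 10.9). Neighbours in this order from *Ftl1* to *Fth1*, from *Heph* to *Tfrc* and from *Ireb2* to *Slc11a2* differed by less than the larger of their SDs. The length is that of all annotated exons joined, and 51.3% of the 75-base windows of *Ftl1* also occur in other genes, *Ftl1-ps1* holding more of them than any other gene, so that the level of *Ftl1* is uncertain. This share was 2.85% in *Slc11a2*, 1.25% in *Cybrd1*, 0.882% in *Fth1* and 0 in the others. *Slc11a2* and *Heph* overlap genes on the opposite strand (*Gm5475* and *Hsf3*), which had at most 6 counts in any mouse.

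**Figure D1:**
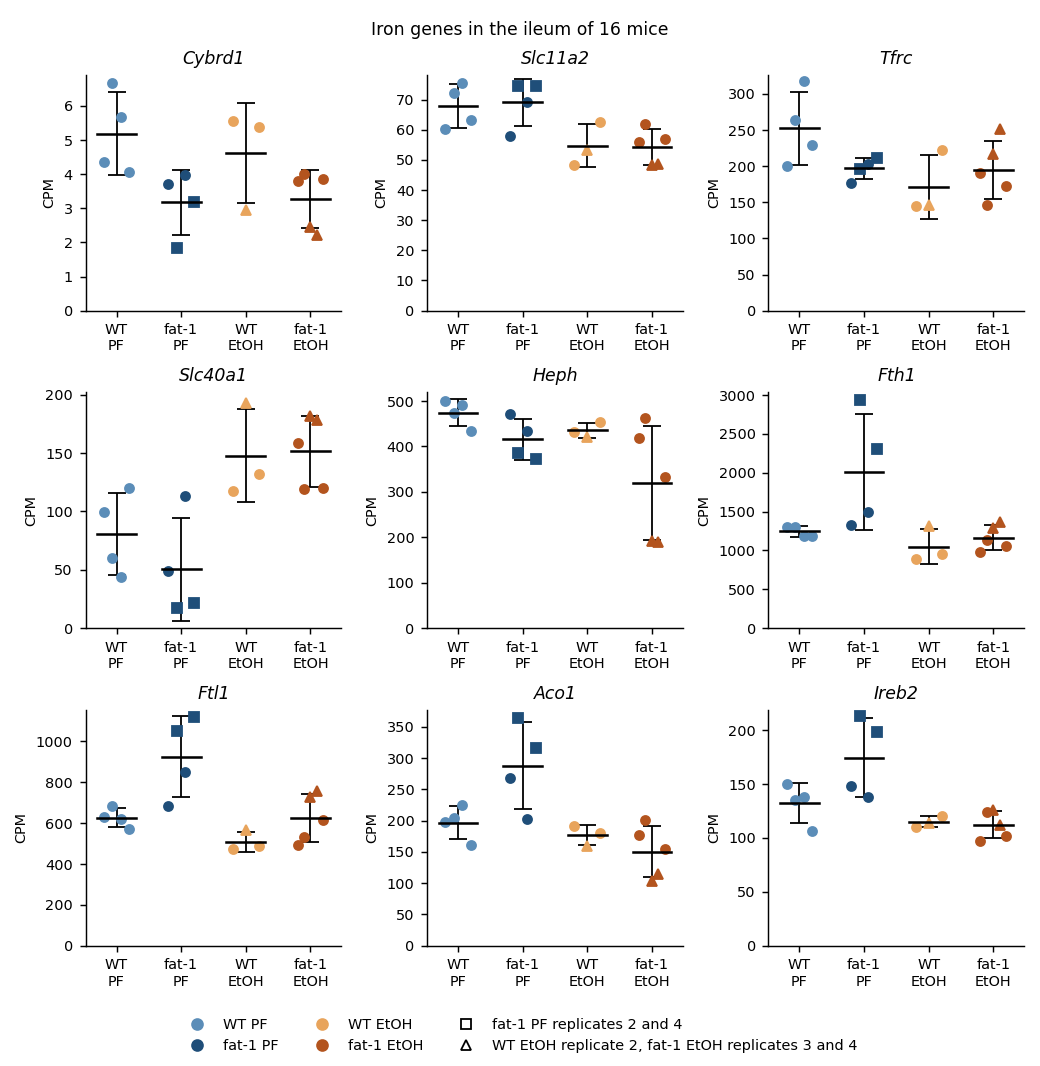
Level of each of the 9 genes in CPM (vertical axes, from 0) in every mouse of the 4 groups, with the mean (bar) and SD (whiskers) of each group; squares and triangles mark the libraries that stood apart by their region markers. The squares, fat-1 PF replicates 2 and 4, are the lowest mice for *Slc40a1* (17.1 and 21.5 CPM) and the highest for *Fth1*, *Aco1* and *Ireb2*.

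Ethanol feeding was first compared within the fat-1 genotype. With EtOH against PF in these mice, 6 of the 9 genes were called at an adjusted p-value of 0.05 or less (quasi-likelihood test of edgeR, adjusted by Benjamini-Hochberg over 13811 genes): *Slc40a1* rose, and *Slc11a2*, *Fth1*, *Ftl1*, *Aco1* and *Ireb2* fell. Of all genes tested, 37.4% were called in this comparison. The median log2 fold change of the 9 genes was -0.38, against 0.05 over all genes. Without fat-1 PF replicates 2 and 4, 0 of the 9 genes were called by edgeR, while 13.9% of 14100 genes still were. Without the 3 EtOH libraries with high large intestine genes, 4 were called (*Fth1*, *Ftl1*, *Aco1* and *Ireb2*), beside 29.7% of all genes, and without all 5 libraries only *Ftl1* was, beside 11.9%. A fit of the 2 fat-1 groups alone called 2, *Aco1* and *Ireb2*, beside 23.2% of all genes, and voom called 5, all but *Slc11a2*, beside 26.8%. The called genes of the table were 49.9% higher in EtOH, and 69.0% under upper-quartile scaling, which moved the median of all genes by 0.15 and called *Slc40a1*, *Fth1*, *Aco1* and *Ireb2* in the same directions, beside 41.0% of all genes.

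The same diet comparison in wild-type mice called none of the 9. In WT EtOH vs WT PF mice 0 genes of the 9 passed in edgeR and 0 in DESeq2, which called 1.86% of all genes, while limma voom with sample weights called *Slc11a2*, *Ftl1* and *Tfrc*, beside 20.7% of all genes. At an unadjusted p-value under 0.05, 2 of the 9 passed in edgeR, *Slc11a2* and *Tfrc*, both lower in EtOH, as did 14.1% of all genes in either direction. Without the 2, the 3 or the 5 libraries 0 of the 9 were called, beside 0.106%, 0.189% and 3.41% of all genes. With all libraries edgeR called 0.0796% of all genes, and the median log2 fold change was -0.21 for the 9 genes and 0.01 for all. Averaged over both genotypes, EtOH vs PF again called 6 genes, the same 6 in the same directions, where 35.9% of all genes were called. Without the 2 fat-1 PF libraries 2 of them were called, *Slc40a1* and *Ireb2*, beside 23.9% of all genes. Without the 3 EtOH libraries 5 were called, all but *Slc40a1*, beside 32.9%, and without the 5 libraries *Fth1* and *Ftl1*, beside 27.6%. The WT and fat-1 comparisons hold different mice, and the difference between their responses is the interaction term of the fit. None of the 9 genes passed it in edgeR, DESeq2 or voom, nor did any gene of the table in edgeR (0.0%). *Aco1* alone was under 0.05 before adjustment, as were 8.26% of all genes, with a log2 difference between the 2 responses of -0.79 (SE 0.30, edgeR adjusted p = 0.595).

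**Figure D2:**
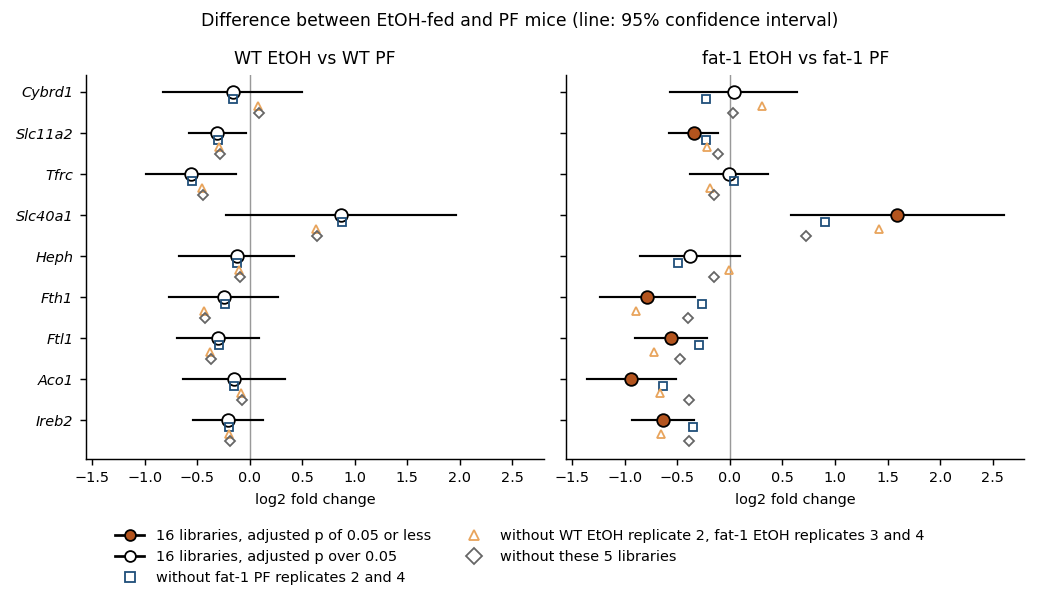
Log2 fold change (horizontal axis) of the 9 genes for EtOH vs PF in WT (left) and fat-1 mice (right), with filled circles for adjusted p-values of 0.05 or less and lines for the 95% confidence interval; open squares, triangles and diamonds are the fits without the 2 fat-1 PF, the 3 EtOH and all 5 libraries. In fat-1 mice the 6 filled circles lie farther from 0 than the squares, as for *Slc40a1* at 1.59 and 0.90.

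Ferroportin gave the widest diet differences of the set in both genotypes. *Slc40a1* (ENSMUSG00000025993, chr1:45908068-45926523 in GRCm38) was at 99.7, 59.8, 44.2 and 119.7 CPM in WT PF and at 49.2, 17.1, 113 and 21.5 CPM in fat-1 PF mice. In EtOH mice it was at 118, 193 and 132 CPM in WT and at 158, 119, 182, 178 and 120.5 CPM in fat-1 animals. All 8 EtOH mice thus stood near or above the highest PF mouse, the fat-1 groups did not overlap, and the WT groups met at 1 mouse. The level was 3.02-fold higher in fat-1 EtOH than in fat-1 PF mice (log2 fold change 1.59, SE 0.47, edgeR adjusted p = 0.0175). In WT mice it was 1.83-fold higher, which did not pass (0.87, SE 0.51, adjusted p = 0.449). Without fat-1 PF replicates 2 and 4 the fat-1 value was 0.90 (adjusted p = 0.139), close to that in WT mice, and without the 3 EtOH libraries it was 1.42 (adjusted p = 0.0760). Replicate 3 of the fat-1 PF mice moved it the other way, to 2.38 (adjusted p = 0.00110) without that mouse. The averaged value of 1.23 (SE 0.35, adjusted p = 0.0138) stayed called without the 2 fat-1 PF libraries (0.89, adjusted p = 0.0340), but not without the 3 EtOH libraries (1.02, adjusted p = 0.0789). Macrophages also use ferroportin. The 12 genes of the macrophage list summed to 287 to 525 CPM in PF and 183 to 437 CPM in EtOH mice. These sums were lowest in the 2 fat-1 EtOH libraries where *Slc40a1* was 182 and 178 CPM. One gene of the list, *Cd163*, a scavenger receptor of resident macrophages, had 8 to 11 counts in fat-1 PF mice. It was higher in every fat-1 EtOH (1.53 to 5.82 CPM) than in every fat-1 PF mouse (1.12 to 1.503 CPM), as was *Slc40a1*. Between these groups 24.0% of all tested genes did not overlap. In WT mice *Cd163* overlapped (1.75 to 5.30 CPM in PF, 2.69 to 3.57 CPM in EtOH). *Adgre1*, also of the list, overlapped between the fat-1 groups (5.72 to 8.71 CPM in PF, 2.85 to 15.65 CPM in EtOH). The part of macrophages in the level of *Slc40a1* was not tested.

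Hephaestin, the oxidase that partners ferroportin, gave no called difference. *Heph* (ENSMUSG00000031209, chrX:96455359-96574485) was at 500.0, 473, 491 and 433 CPM in WT PF and at 472, 385, 434 and 373 CPM in fat-1 PF mice. In WT EtOH mice it was at 432, 420.4 and 454 CPM and in fat-1 EtOH mice at 418, 463, 193, 191 and 334 CPM. Only fat-1 EtOH replicates 3 and 4 lay far below the rest, while WT EtOH replicate 2, which also had high *Car1*, stood at 420.4 CPM. The diet difference in fat-1 mice was -0.38 on the log2 scale (SE 0.22, edgeR adjusted p = 0.193), and without the 3 EtOH libraries it was -0.01. The 95% confidence interval with all mice ran from -0.86 to 0.10.

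Both ferritin chains stood highest in the fat-1 PF mice. *Fth1* (ENSMUSG00000024661, chr19:9980598-9985098) was at 1296, 1304, 1192 and 1184 CPM in WT PF and at 1323, 2932, 1491 and 2301 CPM in fat-1 PF mice. It was at 888, 1311 and 948 CPM in WT EtOH and at 985, 1130, 1289, 1368 and 1057 CPM in fat-1 EtOH mice. The mice with high values were fat-1 PF replicates 2 and 4, and every other mouse lay between 888 and 1491 CPM. *Ftl1* (ENSMUSG00000050708, chr7:45457944-45459884) was at 631, 683, 622 and 570.1 CPM in WT PF and at 685, 1049, 848 and 1119 CPM in fat-1 PF mice. It was at 474, 564 and 487 CPM in WT EtOH and at 494, 534, 727, 758 and 615 CPM in fat-1 EtOH mice, so that the WT groups did not overlap while the fat-1 groups did.

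Between the diets in fat-1 mice *Fth1* fell by 0.79 on the log2 scale (SE 0.21, edgeR adjusted p = 0.0103) and *Ftl1* fell by 0.57 (SE 0.16, adjusted p = 0.0135). Without fat-1 PF replicates 2 and 4 these were -0.27 (adjusted p = 0.291) and -0.29 (adjusted p = 0.236). A single library was enough to end either call: without replicate 2 *Fth1* was at -0.54 (adjusted p = 0.0506), and without replicate 4 *Ftl1* was at -0.45 (adjusted p = 0.0539). In WT mice the differences were -0.25 (SE 0.24, adjusted p = 0.679) and -0.30 (SE 0.18, adjusted p = 0.468). Averaged over genotypes *Fth1* fell by 0.52 (adjusted p = 0.0231) and *Ftl1* by 0.43 (adjusted p = 0.0138), and without the 5 libraries both were still called, at -0.41 (adjusted p = 0.00758) and -0.42 (adjusted p = 0.00943). With all libraries *Fth1* was not called without WT EtOH replicate 1 (-0.47, adjusted p = 0.0668), without WT EtOH replicate 3 (-0.48, adjusted p = 0.0613) or without fat-1 PF replicate 2 (-0.39, adjusted p = 0.0502), nor under upper-quartile scaling (-0.41, adjusted p = 0.0510) or without both fat-1 PF libraries (-0.25, adjusted p = 0.136). The ratio of heavy to light chain counts, which does not depend on scaling between libraries, was 1.99 ± 0.0889 (SD, n = 4) in WT PF, 2.13 ± 0.457 (n = 4) in fat-1 PF, 2.05 ± 0.241 (n = 3) in WT EtOH and 1.88 ± 0.167 (n = 5) in fat-1 EtOH mice. The group means of this ratio differed by less than the widest SD.

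The genes of the iron regulatory proteins fell with ethanol in fat-1 mice. *Aco1* (ENSMUSG00000028405, chr4:40143081-40198338) encodes IRP1, which with an iron-sulfur cluster is the cytosolic aconitase. It was at 198, 204, 225 and 161 CPM in WT PF and at 268, 364, 202 and 316 CPM in fat-1 PF mice. In EtOH mice it was at 192, 159 and 180.4 CPM in WT and at 177, 200.4, 104, 114 and 155 CPM in fat-1 animals. Again fat-1 PF replicates 2 and 4 were highest and fat-1 EtOH replicates 3 and 4 lowest, and the fat-1 groups did not overlap, with 202 CPM as the lowest PF and 200.4 CPM as the highest EtOH value. *Aco1* was 1.92-fold lower in fat-1 EtOH than in fat-1 PF mice (log2 fold change -0.94, SE 0.20, edgeR adjusted p = 0.00272). The WT value was -0.15 (SE 0.23, adjusted p = 0.800). Leaving out any single mouse kept the fat-1 call, while leaving out fat-1 PF replicates 2 and 4 together did not (-0.64, adjusted p = 0.0743).

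*Ireb2* (ENSMUSG00000032293, chr9:54863789-54912530) encodes IRP2, a protein that is degraded when iron is plentiful. It was at 150.4, 135, 138 and 107 CPM in WT PF and at 148, 213, 138 and 198 CPM in fat-1 PF mice. It was at 110.4, 114 and 120.3 CPM in WT EtOH and at 97.4, 124, 126, 112 and 102 CPM in fat-1 EtOH mice. All EtOH mice lay at or below 126 CPM and 7 of 8 PF mice above it. *Ireb2* was 1.55-fold lower in fat-1 EtOH than in fat-1 PF mice (-0.64, SE 0.14, edgeR adjusted p = 0.00311), and -0.35 (adjusted p = 0.0860) without the 2 fat-1 PF libraries. In WT mice the difference was -0.21 (SE 0.16, adjusted p = 0.575). The averaged differences were -0.55 (adjusted p = 0.0126) for *Aco1* and -0.42 (adjusted p = 0.00720) for *Ireb2*. Without the 2 fat-1 PF libraries they were -0.39 (adjusted p = 0.0852) and -0.27 (adjusted p = 0.0424), and without the 5 libraries -0.23 (adjusted p = 0.149) and -0.29 (adjusted p = 0.0537).

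Of the uptake genes, *Slc11a2* had the smallest spread between mice. The gene (ENSMUSG00000023030, chr15:100387898-100425072) was at 60.1, 72.1, 75.6 and 63.4 CPM in WT PF and at 58.1, 74.4, 69.3 and 74.6 CPM in fat-1 PF mice. In EtOH mice it was at 48.4, 53.3 and 62.4 CPM in WT and at 55.9, 61.8, 48.2, 48.5 and 57.0 CPM in fat-1 animals. The EtOH mice were lower in both genotypes, by about the same amount, with the groups meeting at their edges. The difference was -0.31 in WT (SE 0.13, edgeR adjusted p = 0.298) and -0.35 in fat-1 mice (SE 0.11, adjusted p = 0.0241), and -0.33 averaged over them (SE 0.08, adjusted p = 0.00853). The interaction was -0.04, with a 95% confidence interval from -0.40 to 0.32. The fat-1 call was lost without any 1 of 5 mice, fat-1 PF replicates 2, 3 and 4 and fat-1 EtOH replicates 3 and 4, with values of -0.34 to -0.30 (adjusted p = 0.0536 to 0.0818). It was also lost without the 2 fat-1 PF libraries (-0.23, adjusted p = 0.260) or the 3 EtOH libraries (-0.22, adjusted p = 0.183), and in voom (-0.31, adjusted p = 0.108). The averaged call was kept without any single mouse and without the 3 EtOH libraries (-0.26, adjusted p = 0.0461), but not without the 2 fat-1 PF libraries (-0.26, adjusted p = 0.0585) or the 5 (-0.20, adjusted p = 0.145).

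*Cybrd1* (ENSMUSG00000027015, chr2:71117923-71142926), the brush border reductase, was the scarcest of the 9 genes in every group, with 13 to 64 counts per mouse. It was at 4.37, 6.68, 5.67 and 4.05 CPM in WT PF and at 3.71, 1.82, 3.96 and 3.19 CPM in fat-1 PF mice. In EtOH mice it was at 5.55, 2.94 and 5.38 CPM in WT and at 3.80, 4.00, 2.46, 2.23 and 3.85 CPM in fat-1 animals. Every fat-1 PF mouse was below every WT PF mouse, and the 3 EtOH libraries with high *Car1* were the lowest of the EtOH mice. No diet difference was called (-0.16 in WT and 0.04 in fat-1 mice, edgeR adjusted p = 0.849 and 0.928), and both signs turned among the alternatives. *Tfrc* (ENSMUSG00000022797, chr16:32608920-32632794), the receptor gene with 4 matches to the hairpin rule, was at 199.8, 264, 317 and 229 CPM in WT PF mice. In fat-1 PF mice *Tfrc* was at 177, 196, 204 and 211 CPM. It was at 145, 146 and 223 CPM in WT EtOH and at 190.2, 147, 216, 251 and 172 CPM in fat-1 EtOH mice, so that all groups overlapped one another. Its difference was -0.56 in WT mice (SE 0.20, adjusted p = 0.243) and -0.01 in fat-1 mice (SE 0.18, adjusted p = 0.966, 95% confidence interval -0.38 to 0.36), and the averaged value of -0.29 (adjusted p = 0.105) passed without WT EtOH replicate 3 (-0.41, adjusted p = 0.0326) and in voom (-0.38, adjusted p = 0.0356). The interaction was 0.55 (SE 0.27, adjusted p = 0.595).

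**Figure D3:**
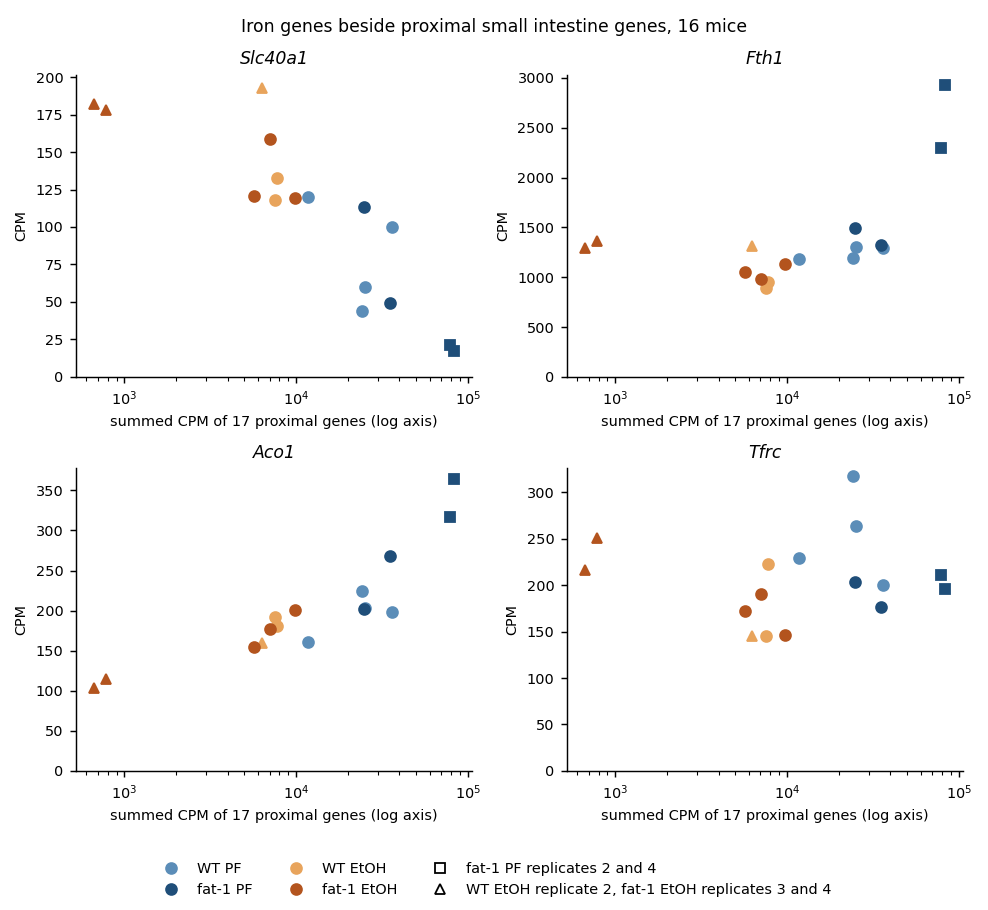
Level of *Slc40a1*, *Fth1*, *Aco1* and *Tfrc* in CPM (vertical axes) against the summed CPM of 17 proximal small intestine genes (horizontal log axes) in each of the 16 mice, coloured by group, with the libraries that stood apart as squares and triangles. The 2 squares at 79070 and 82870 CPM have the lowest *Slc40a1* and the highest *Fth1* and *Aco1*, while their *Tfrc* (196 and 211 CPM) is within the range of the others.

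Genotype was compared within each diet. Between genotypes on PF 0 of the 9 genes were called by edgeR, as were 0.0% of all genes, and DESeq2 called *Ftl1* alone (0.55, adjusted p = 0.0496) beside 1.37% of all genes. Unadjusted p-values under 0.05 were reached by 5 of the 9 in edgeR and by 12.7% of all genes. *Fth1* (0.69, SE 0.23), *Ftl1* (0.56, SE 0.17), *Aco1* (0.55, SE 0.21) and *Ireb2* (0.40, SE 0.15) were higher and *Cybrd1* (-0.70, SE 0.30) was lower in fat-1 PF mice, with adjusted p-values between 0.192 and 0.339. Without fat-1 PF replicates 2 and 4 these values were 0.17, 0.28, 0.25, 0.10 and -0.44, and that of *Slc40a1* went from -0.69 to -0.0049. Between genotypes on EtOH 0 of the 9 genes were called by edgeR, DESeq2 or voom and 0 were under 0.05 before adjustment, beside 4.86% of all genes, where edgeR called 0.00724% of all genes. Without the 2, the 3 or the 5 libraries edgeR likewise called 0 of the 9 in both genotype comparisons. The 9 values ran from -0.50 for *Cybrd1* to 0.30 for *Ftl1*. The comparisons share groups of mice, so that the high values of fat-1 PF replicates 2 and 4 enter both this genotype comparison and the diet comparison in fat-1 mice.

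Counted without a model, 3 of the 9 genes did not overlap between the genotypes on PF (*Cybrd1*, *Fth1* and *Ftl1*), where 6.87% of all tested genes did not. Between WT EtOH and WT PF mice this held for 1 (*Ftl1*), beside 24.3% of all genes. Between fat-1 EtOH and fat-1 PF mice it held for 3 (*Slc40a1*, *Aco1* and *Ireb2*), beside 24.0%, and between the genotypes on EtOH for 0, beside 2.45%. The exact permutation test (two-sided, on log2(CPM + 0.5)) gives such a gene the smallest p the design allows, 0.0286 for 4 mice against 4, 0.0571 for 3 against 4 and 0.0159 for 5 against 4.

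The pattern of each gene over the 16 libraries was set beside all other tested genes by the correlation of log2 CPM. These r values are descriptions over libraries that share diet, region markers and depth. Among the genes most like *Slc40a1* were *Inava* (r = 0.954) and *Ssbp3* (0.949). *Heph* went with *Cdh17* (r = 0.991), *Ldb3* (0.982) and *Ezr* (0.981), and *Cdh17* and *Ezr* encode a cadherin and a linker protein of the epithelial cell surface. *Fth1* went with *Gstt1* (r = 0.959), *Nmnat3* (0.957) and *Cat* (0.953), the last of which encodes catalase. For *Ftl1* they were *Jtb* (r = 0.954) and the genes of respiratory complex I subunits *Ndufs6* (0.953) and *Ndufa1* (0.950). *Aco1* went with *Pdk2* (r = 0.979), *Osbpl6* (0.966) and *Gal3st2b* (0.964), and *Ireb2* with *Ppm1j* (0.964), *1190002N15Rik* (0.961) and *Pkm* (0.960). The closest genes were less alike for *Slc11a2* (*Vcpkmt* 0.927, *B3galt4* 0.917 and *Atg5* 0.907) and *Cybrd1* (*Tlk1* 0.873, *Jdp2* 0.862 and *Fosl2* 0.856), and least for *Tfrc* (*Taf3* 0.762, *Unc119b* 0.744 and *Edn2* 0.724). Among the 9 themselves, the closest pairs were *Fth1* with *Ftl1* (0.925), *Fth1* with *Ireb2* (0.871) and *Ftl1* with *Ireb2* (0.804). The strongest relations of the other sign were *Slc40a1* with *Aco1* (-0.890) and with *Ireb2* (-0.875).

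The wider machinery of iron was read from 77 other genes in 7 lists, of which 70 were tested. Hepcidin, the hormone that removes ferroportin from the membrane, is made mainly in the liver, and *Hamp* and *Hamp2* were under 0.7 CPM in all mice and were not tested. In fat-1 mice on EtOH vs PF 33 of the 70 genes were called, 7 higher and 26 lower, beside 37.4% of all genes, 18.7% higher and 18.8% lower. Their median log2 fold change was -0.21, against 0.05 over all genes. In WT EtOH vs WT PF mice 0 of the 70 were called by edgeR, 15 were under 0.05 before adjustment beside 14.1% of all genes, and voom called 17, beside its 20.7% of all genes. Averaged over genotypes 33 were called, 5 higher and 28 lower, beside 35.9% of all genes, 18.3% higher and 17.6% lower. Under upper-quartile scaling the splits were 12 higher of 33 in fat-1 mice and 10 higher of 27 on average. Of all genes, 41.0% and 38.7% were called in either direction, and 69.0% and 68.2% of those called were higher. In the 2 genotype comparisons and the interaction edgeR called 0 of the 70, with 18, 5 and 14 under 0.05 before adjustment beside 12.7%, 4.86% and 8.26% of all genes, and DESeq2 called 5 between the PF groups, beside 1.37% of all genes. Without fat-1 PF replicates 2 and 4 the fat-1 count was 14 and the averaged count 21, beside 13.9% and 23.9% of all genes. Without the 3 EtOH libraries they were 30 and 26, beside 29.7% and 32.9%, and without the 5 libraries 16 and 27, beside 11.9% and 27.6%.

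In fat-1 mice 10 of 19 genes of heme uptake, synthesis and breakdown fell and 1 rose, and 8 of 15 genes of mitochondrial iron and iron-sulfur clusters fell and 0 rose, where 18.8% of all genes fell and 18.7% rose. *Slc46a1*, a proton-coupled folate carrier of the proximal intestine that was also described as a heme carrier, fell by 4.78 on the log2 scale (SE 0.66, edgeR adjusted p = 3.2e-04). Its level was 45.4 to 490 CPM in fat-1 PF, with 490 and 401 CPM in replicates 2 and 4, and 4.55 to 16.5 CPM in fat-1 EtOH mice. Without these 2 fat-1 PF libraries *Slc46a1* was at -2.92 (adjusted p = 0.00788), and without the 5 libraries at -2.49 (adjusted p = 0.0215). *Flvcr1*, a heme exporter and choline transporter, fell by 2.10 (SE 0.44, adjusted p = 0.00282), from 119 to 200.3 CPM in fat-1 PF mice down to 10.2 to 61.2 CPM in fat-1 EtOH mice. *Slc25a28*, mitoferrin-2, which carries iron into mitochondria, fell by 1.18 (SE 0.21, adjusted p = 0.00115). Without the 2 fat-1 PF libraries all of these 3 genes were still called, and without the 5 libraries *Slc25a28* was not (-0.48, adjusted p = 0.0788). In WT mice *Slc46a1* was at -1.83 (SE 0.72, adjusted p = 0.287) and *Flvcr1* at -1.10 (SE 0.51, adjusted p = 0.352).

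Among ferrireductases and ferrous uptake genes 3 of 8 rose and 1 fell with EtOH in fat-1 mice, against the same 18.7% and 18.8% of all genes. *Steap4*, a metalloreductase, rose by 1.58 (SE 0.52, edgeR adjusted p = 0.0282) and *Steap3*, a reductase of endosomes, rose by 1.06 (SE 0.27, adjusted p = 0.00797). *Cp*, ceruloplasmin, the soluble relative of hephaestin, rose by 1.41 (SE 0.48, adjusted p = 0.0326) and was the only called gene of 7 tested in the transferrin and plasma list. Fat-1 EtOH replicate 5 held 34.7 CPM of *Cp* and 20.4 CPM of *Steap4*, against at most 11.8 and 7.90 CPM in any other mouse. It also had the highest B cell sum, 486 CPM beside 97.9 CPM or less in all others. Its mean log2 CPM of the 11 tested macrophage genes was highest too (4.79, against at most 4.34), though their sum was not (437.5 against up to 525 CPM). The part of these cells in *Cp* and *Steap4* was not tested. Without this library *Cp* was at 0.69 (adjusted p = 0.0693) and *Steap4* at 0.94 (adjusted p = 0.0687). Both calls also ended without fat-1 PF replicate 1 (adjusted p = 0.0637 and 0.0723) or 3 (adjusted p = 0.0823 and 0.0554), and that of *Cp* without replicate 4 (adjusted p = 0.0702). *Steap3* was highest in fat-1 EtOH replicates 3 and 4 (21.6 and 27.2 CPM) and lowest in fat-1 PF replicates 2 and 4 (5.47 and 6.01 CPM). It was not called without the 3 EtOH libraries (0.64, adjusted p = 0.0604) or without the 2 fat-1 PF libraries (0.68, adjusted p = 0.126). In the remaining lists, 1 gene rose and 2 fell of 7 tested hepcidin regulators, 1 rose and 2 fell of 7 ferritin delivery genes, and 3 of 7 oxygen sensing genes fell, against these shares of all genes.

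Averaged over genotypes, 3 of the 6 named genes were those named in fat-1 mice, *Slc46a1*, *Flvcr1* and *Steap3*. *Slc46a1* fell by 3.31 (SE 0.51, edgeR adjusted p = 5.1e-04) and *Flvcr1* fell by 1.601 (SE 0.34, adjusted p = 0.00320). *Steap3* (0.66, SE 0.20), *Pcbp3* (0.63, SE 0.18), a member of the poly(C)-binding family whose relatives deliver iron to ferritin, and *Steap2* (0.48, SE 0.13) rose, with adjusted p-values of 0.0198, 0.0149 and 0.0107. *Alas2*, the red cell form of the first enzyme of heme synthesis, fell by 1.54 (SE 0.57, adjusted p = 0.0452). Its mean level was lower with EtOH only within the WT genotype, at 0.340 to 2.18 CPM in PF and 0 to 0.179 CPM in EtOH, against 0.421 to 0.820 and 0.178 to 1.45 CPM in fat-1 mice, where the log2 fold change was 0.15 (SE 0.63, adjusted p = 0.865). The interaction of *Alas2* did not pass (edgeR adjusted p = 0.595). It was at or below 2.18 CPM in all mice and at 0 in 1 of them, and 6 red blood cell genes found in the table summed to 13.1 to 41.0 CPM (median 24.4) in WT PF and 6.40 to 16.6 CPM (median 9.24) in WT EtOH mice, lower with EtOH as *Alas2* was. In fat-1 mice they summed to 20.6 to 31.7 CPM in PF and 6.87 to 35.8 CPM in EtOH, and their part in the values of *Alas2* was not tested. Leaving out 1 mouse ended that call in 11 of 16 fits, with values of -1.96 to -1.32 among them, and kept it only without WT PF replicates 1, 2 or 4 or fat-1 EtOH replicates 3 or 5.

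**Figure D4:**
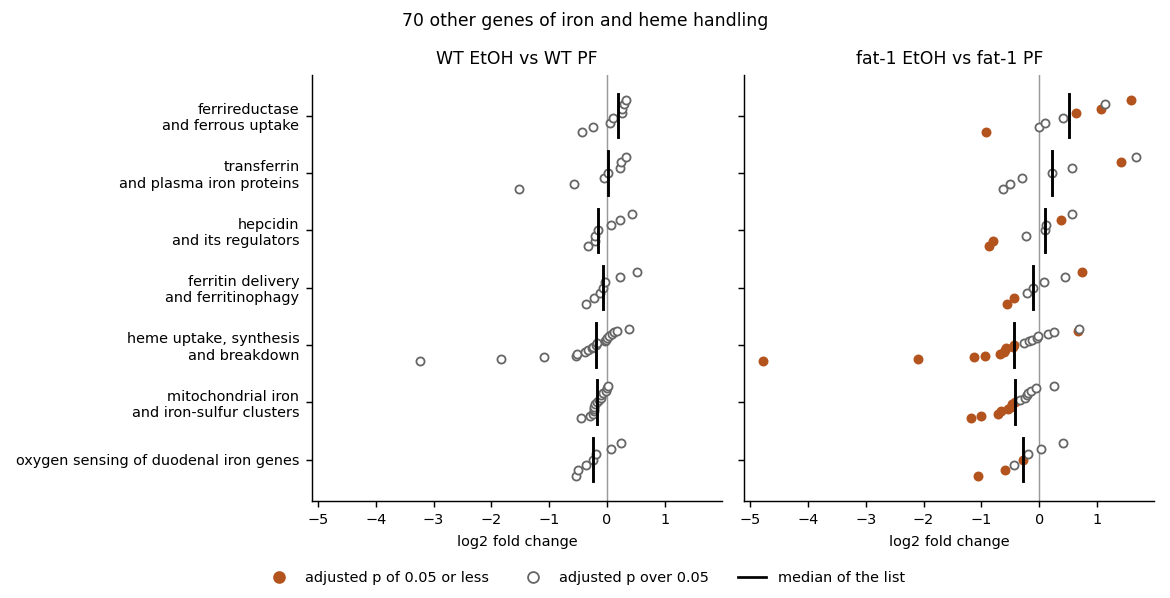
Log2 fold change (horizontal axis) for EtOH vs PF in WT (left) and fat-1 mice (right) of the 70 tested genes of 7 iron and heme lists (rows), with filled points for adjusted p-values of 0.05 or less and a bar at the median of each list. In fat-1 mice 26 filled points lie left and 7 right of 0, the farthest being *Slc46a1* at -4.78, and in WT mice no point is filled.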

How the data were processed

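RNA was sequenced from the ileum of 16 mice as poly(A)-selected, stranded libraries, 1 per mouse, and mice are the replicates. The authors aligned the reads to mm10 (GRCm38) with tophat2, guided by Ensembl transcripts, and deposited raw counts of reads per Ensembl gene made with htseq, without normalization. The strand setting of the counting is not given in the sources used here. The table has 21965 genes, of which 4158 have no count and 26 no symbol in GENCODE M21, which gave symbols, positions, exon lengths and transcripts; the authors' cuffdiff2 results were not used here.

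The counts were analysed with edgeR 4.0.16 in R 4.3.3: filterByExpr, which left 13811 genes, TMM scaling, and 1 quasi-likelihood fit with 1 mean per group over all 16 libraries and robust estimation. Genes were called at a Benjamini-Hochberg adjusted p-value of 0.05 or less, and contrasts of the fit gave the 4 pairs of groups, the averaged diet effect and the interaction. The fit and its filter were tested on simulated data. Values of single mice are CPM, and correlations used log2 CPM with a prior count of 2. With 8422645 to 11438539 reads per library, counting error was small beside the spread between mice for all 9 genes except *Cybrd1*, which had at most 7 CPM.

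The 9 genes, the 77 other iron genes and the marker lists were chosen with earlier results of these data known, as were the 5 libraries left out. All 9 genes are named. Of the other iron genes, those named are the called genes that rose most (3) and fell most (3) in each comparison, and for likeness the 3 genes with the highest r, of which 1 is not reported here. Alternatives were DESeq2 1.42.0, voom of limma 3.58.1 with quality weights, scaling by DESeq2 size factors or upper quartiles, filters of 1 count in any mouse or 10 counts in all mice, a fit of the compared groups alone, a block for the replicate number, each mouse left out in turn, and the libraries that stood apart left out. Leaving out all 5 of these at once, and the alternatives for the named wider iron genes, were chosen after seeing the data. Markers of the epithelium, goblet cells, proliferation and B cells were also summed per library. Tables were handled with python 3.11.15, exact tests run with scipy and figures drawn with matplotlib 3.10.9.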

Additional observations from a re-analysis of the deposited data

How the results depend on the processing

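Of 1753 log2 fold changes recomputed for single genes, 1596 kept their direction and their side of the threshold, 81 lost the call, 6 gained it and 70 changed sign. None that changed sign had been called (smallest adjusted p 0.611 with all libraries). *Cybrd1* had 13 to 64 counts per mouse, so that counting error weighs most on its values.

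Of the 9 genes, those called changed by over 1.5 times as follows; the cause was not tested. Between the PF groups DESeq2 called 1 in place of 0, and of the 70 wider genes 5 in place of 0 (0 to 1 when leaving out each mouse). In WT EtOH vs WT PF, voom called 3 of the 9 and 17 of the 70, in place of 0. A fit of only these groups called 4 of the 70, and the fit without the 5 libraries 4 of the 70, in place of 0. Of all genes these 3 fits called 20.7%, 8.32% and 3.41%. For the diet effect in fat-1 mice, in place of 6 of the 9 and 33 of the 70, the fit of only these groups called 2 of the 9, that without the 2 fat-1 PF libraries 0 and 14, and that without the 5 libraries 1 and 16. For the averaged diet effect these were 2 and 21 without the 2 fat-1 PF libraries and 2 of the 9 without the 5. Leaving out each mouse gave 4 to 6 of the 9 and 27 to 35 of the 70 in fat-1 mice, beside 3928 (28.5%) to 5430 of all genes. On average it gave 5 to 6 and 25 to 33, beside 3798 (26.9%) to 5245 of all genes. Shared replicate numbers did not mark pairs of mice: deviations from group means correlated at -0.0225 on average over 21 same-numbered pairs and 0.00703 over 74 others. With the replicate block 6 of the 9 genes were called in fat-1 mice and 6 on average, as without it, and 28 and 31 of the 70, where 4748 and 4836 of all 13811 genes were. Of the named genes it ended the calls of *Cp* (0.67, adjusted p = 0.0514) and *Steap4* (0.94, adjusted p = 0.0679) in fat-1 mice.

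None of the log2 values that changed sign was called before or after. For *Slc11a2* between the PF groups they were -0.0361 (upper-quartile scaling), -0.0057 (without the 3 EtOH libraries), -0.0994 (without the 2 fat-1 PF) and -0.104 (without the 5), and -0.0365 to 0.0932 leaving out each mouse. *Cybrd1* in WT mice gave 0.0746 and 0.0849 without the 3 and the 5 libraries (-0.312 to 0.0741 over single mice), and in fat-1 mice -0.0292 with the replicate block and -0.225 without the 2 (-0.135 to 0.169). Its averaged value was 0.0977 (voom), 0.0352 (upper-quartile), 0.192 (without the 3) and 0.0584 (without the 5), and -0.144 to 0.0541 over single mice. *Tfrc* in fat-1 mice gave 0.144 (upper-quartile), 0.0306 (stricter filter), 0.0165 (replicate block), 0.0083 (only these groups) and 0.0390 (without the 2), and -0.104 to 0.0764 over single mice. Between the EtOH groups *Slc11a2* gave 0.0997 (voom), 0.0238 (upper-quartile), 0.0102 (only these groups), 0.0715 and 0.0641 (without the 3 and the 5), and -0.0959 to 0.0924 over single mice. There *Ireb2* gave 0.0029 (upper-quartile) and 0.0055 (replicate block; -0.0863 to 0.0040 over single mice), *Tfrc* -0.119 and -0.126 without the 3 and the 5, and *Slc40a1* -0.105 to 0.272 over single mice. For the interaction *Slc11a2* gave 0.0479 (voom), 0.0600 (upper-quartile), 0.0772 (without the 3), 0.0781 (without the 2) and 0.168 (without the 5), and -0.123 to 0.0657 over single mice. *Heph* gave 0.0239 (voom) and 0.0883 (without the 3), *Cybrd1* -0.0698 and -0.0531 (without the 2 and the 5; -0.0401 to 0.347 over single mice), *Ftl1* 0.0021 (without the 2) and *Fth1* 0.0296 (without the 5).

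Counts over all tested genes moved as well. Between the PF groups DESeq2 called 189 genes and voom 30, in place of 0, and edgeR called 98 without fat-1 PF replicate 1 and 114 without replicate 3. In WT mice 11 genes were called by edgeR, 257 by DESeq2, 2853 by voom, 1103 in the fit of these groups alone and 468 without the 5 libraries. They were 2 with the looser and 0 with the stricter filter, 18 with the replicate block and 26 without the 3 EtOH libraries. Leaving out each mouse gave 0 (without WT EtOH replicate 1 or 3) to 66 (without WT PF replicate 4), with 2 to 17 without any other mouse. Between the EtOH groups 1 gene was called by edgeR, 5 by DESeq2, and 0 with the block or in the fit of these groups alone. In fat-1 mice these were 5170 by edgeR, 3086 in the fit of these groups alone, 1965 without the 2 fat-1 PF libraries and 1626 without the 5.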
